A study of Mus musculus with 28 samples.

Results

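Methylation of lysine 9 of histone H3 is written, read and anchored by a small group of proteins, and the genes for 10 of them were located relative to H3K9me2 domains in mouse embryonic stem cells (mESCs) and 2-cell-like cells (2CLCs). The genes were taken from a fixed list of names, Ehmt1, Ehmt2, Wiz, Zfp462, Zfp644, Trim28, Setdb1, Suv39h2, Cbx3 and Cbx5, and all 10 were found among the 21755 protein-coding genes of chromosomes 1 to 19 and X in mm10. For each gene, the annotated start and the gene body (start to end of the annotated gene) were placed inside or outside the domains, and the distance from the start to the nearest domain edge was measured.

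EHMT1 and EHMT2 form a heterodimer that places the mono- and dimethyl mark on H3K9 across silent euchromatin. WIZ, ZFP644 and ZFP462 are zinc finger partners that bring this enzyme to chromatin. SETDB1 and SUV39H2 are further H3K9 methyltransferases, best known for trimethylation of retroelements and of constitutive heterochromatin. TRIM28 links KRAB zinc finger proteins to SETDB1, and CBX3 and CBX5 are HP1 proteins that bind methylated H3K9.

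The cells were KH2 mESCs from a cross of C57BL/6J and 129S1 in which both copies of Ehmt2 end in a degron (FKBP12F36V), so that dTAG-13 leads to loss of the EHMT2 protein and DMSO is the solvent control. The tagged allele was shared by all 28 libraries, 14 from H3K9me2 immunoprecipitation by ULI-NChIP (a native protocol for few cells) and 14 from input chromatin. For the sorted experiment, 1 clone carrying a MERVL-GFP reporter was treated for 72 h and separated into GFP-negative mESCs and GFP-positive 2CLCs, a rare state that resembles the 2-cell embryo, with 3 immunoprecipitation and 3 input libraries for each cell state and treatment (mESC DMSO, 2CLC DMSO, mESC dTAG and 2CLC dTAG). A further 2 immunoprecipitation and 2 input libraries came from unsorted mESCs kept in DMSO for 24 h. According to the methods, the sorted cultures, DMSO as well as dTAG, also received TTNBP, an agonist of the retinoic acid receptors. By the labels, only 2 unnamed sorted replicates received it. By the methods, DMSO in the sorted sets is therefore not solvent alone. Feeder fibroblasts were used in culture, and no value in these lists measures their share.

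The deposited data were 5 lists of domain positions, 1 for each of the 4 sorted conditions and 1 more whose name gives neither a cell state nor a treatment (the unnamed set, assigned to no group). No list carries values for single samples. The distances below therefore have no replicate error, no test was possible, and every difference between sets is a difference between lists. A domain is a run of bins on a grid of 5 kb, called from percentile limits of the ratio of immunoprecipitation to input. A domain near a gene is thus not a level of the mark. The paper reports that EHMT2 depletion lowered H3K9me2 globally in both cell states. More or nearer domains in dTAG therefore do not show more of the mark. Shifts of up to 2.5 kb were counted as equal. The number of domains ranged from 4246 in 2CLC DMSO to 8820 in 2CLC dTAG, and their median width from 60 kb in both dTAG sets to 150 kb in the unnamed set. The depth of the libraries is unknown from these lists. Expression of the genes was not measured in these libraries, and the state of the sorted cells could not be checked against marker transcripts.

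At the annotated gene start, 9 of these 10 genes were outside H3K9me2 domains in every set. In mESC DMSO 0 of 10 starts were inside, against 22.3% of all protein-coding starts, in 2CLC DMSO 0 of 10 against 23.2%, in 2CLC dTAG 0 of 10 against 26.5% and in the unnamed set 0 of 10 against 30.0%. In mESC dTAG 1 of 10 was inside, that of Setdb1, against 23.6%. Over the 4 sorted sets together, 9 of 10 starts were outside throughout, a state shared by 65.8% of protein-coding genes. When any annotated transcript start was counted, the number of genes inside was 1 of 10 in mESC DMSO (24.2% of all), 2 in 2CLC DMSO (25.0%) and 2 in 2CLC dTAG (29.4%), from Ehmt2 and Zfp462. With 10 genes and no replicate, these shares describe the list and were not tested.

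For starts outside domains, the distance to the nearest domain edge varied widely. The median distance from the 10 starts to the nearest domain edge was 255.4 kb in mESC DMSO and 240.7 kb in 2CLC DMSO, 118.6 kb in mESC dTAG and 106.5 kb in 2CLC dTAG, and 169.1 kb in the unnamed set. The value for mESC dTAG includes Setdb1, measured from inside its domain. Over the 9 starts outside domains there it was 121.7 kb. Over all protein-coding genes the medians were 247.3, 269.7, 126.9, 88.7 and 129.3 kb in the same order. These include starts inside domains, measured to the edge of their own domain. Over those outside domains, as nearly all of the 10 were, the medians were 315.1, 329.3, 146.4, 105.1 and 198.3 kb. When domains under 50 kb were left out, the median of the 10 was 479.8 kb in mESC DMSO and 231.5 kb in mESC dTAG, and in 2CLCs 240.7 kb with DMSO and 231.5 kb with dTAG. The genes differed from each other far more than their median differed from that of all genes. In mESC DMSO they ran from 8.5 kb for Ehmt2 to 1301.1 kb for Zfp644, and in 2CLC DMSO from 5.5 kb for Zfp462 to 1494.0 kb for Cbx3. At least 100 kb separated 7 of 10 starts from a domain in mESC DMSO, where 74.5% of the protein-coding starts outside domains were that far, and 5 of 10 in 2CLC dTAG, where 51.5% were.

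**Figure D1:**
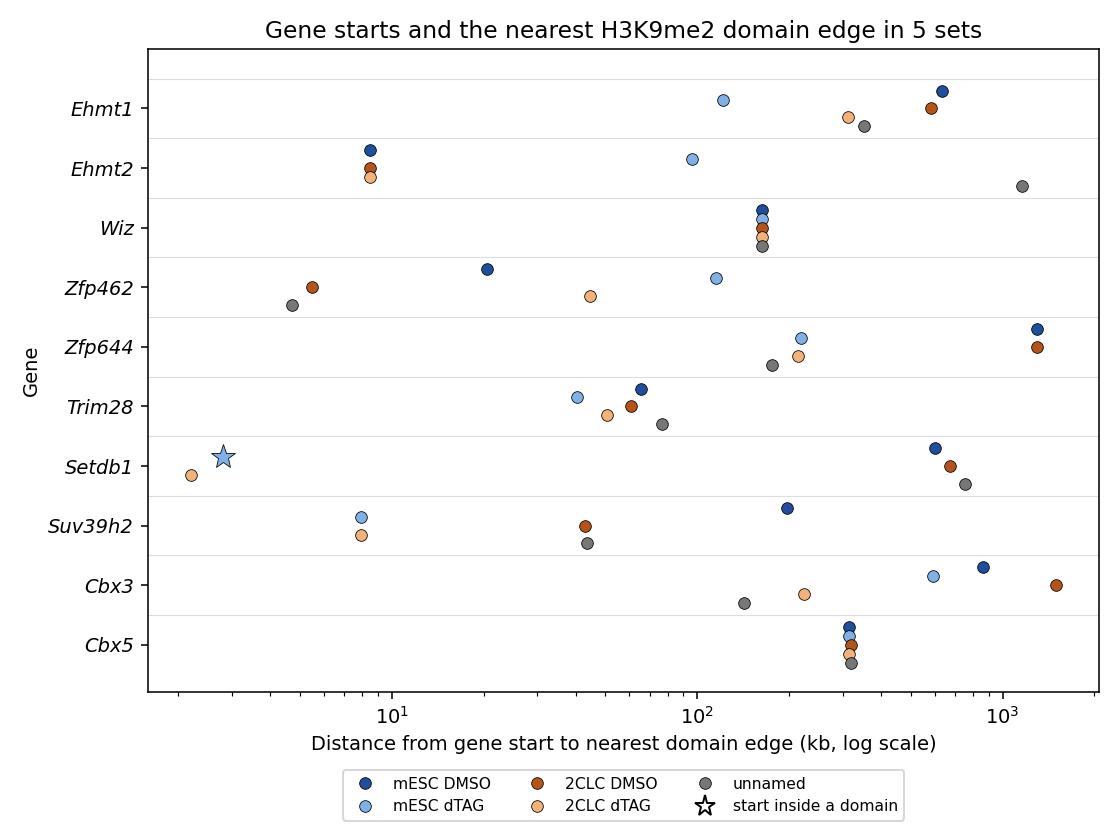
Distance from each gene start to the nearest domain edge (kb, log scale) in the 5 domain sets, with 1 point for each gene and set and a star where the start was inside a domain. Wiz stays between 162.5 and 162.9 kb and Cbx5 between 313.8 and 319.1 kb, while Setdb1 runs from 752.1 kb outside to inside a domain.

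Contacts of domains with the gene bodies, which include the starts, were counted next. In mESC DMSO 1 of 10 bodies was touched, against 27.9% of protein-coding genes, in mESC dTAG 2 of 10 against 30.9%, in 2CLC DMSO 2 of 10 against 28.4%, in 2CLC dTAG 2 of 10 against 35.3% and in the unnamed set 1 of 10 against 37.3%. The touched bodies were those of Ehmt1, Ehmt2, Setdb1 and Zfp462. The other 6 genes (Wiz, Zfp644, Trim28, Suv39h2, Cbx3 and Cbx5) were untouched in all 5 sets, and 58.1% of protein-coding genes were untouched in the 4 sorted sets. The median length of the 10 genes was 34.5 kb against 17.4 kb for all protein-coding genes, with Cbx3 (13.3 kb) and Ehmt2 (15.6 kb) below the latter.

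Ehmt2, the catalytic subunit that was depleted, spans chr17:34898469-34914052 on the plus strand with 27 exons in its longest coding transcript. Its start was outside in every set, yet its 3′ end lay in a domain in 3 of them. In mESC DMSO and in 2CLC DMSO the same 10 kb domain, chr17:34906968-34916967, began 8.5 kb downstream of the start and covered 7.1 kb or 45.5% of the gene, from exon 14 to exon 27. In 2CLC dTAG the domain had the same left edge and reached chr17:34931967, a width of 25 kb. In mESC dTAG it was absent, and the nearest domain lay 96.5 kb upstream of the start. In the unnamed set no domain came within 1158.9 kb.

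A domain of 10 kb is the width of the averaging window and is rare in these lists. Only 31 of the 4323 domains of mESC DMSO (0.717%) and 11 of the 4246 of 2CLC DMSO (0.259%) were 10 kb or less. The Ehmt2 domain also held the start of Slc44a4, the next gene downstream, and in 2CLC dTAG that of Neu1. The pattern of a body touched in mESC DMSO, 2CLC DMSO and 2CLC dTAG but not in mESC dTAG was found for 349 of 21755 protein-coding genes (1.60%). In mESC DMSO it was the only domain within 500 kb of the start. Of the protein-coding starts outside domains, 5.35% in mESC DMSO and 4.93% in 2CLC DMSO were nearer to an edge than that of Ehmt2. With every domain narrowed by 1 bin on each side, the contact was lost in both DMSO sets and kept in 2CLC dTAG. Of the 14 annotated transcript starts of Ehmt2, 4 lay inside the domain.

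The site at which Ehmt2 was edited lies inside this domain. The guide used to cut at the end of the coding region is shown because it fixes the place of the degron cassette, with the adjacent PAM in capitals.
Ehmt2 guide site: aagagtcctcaggtgttgatGGG
The 20 bases before the PAM matched chromosomes 1 to 19 and X at 1 place, chr17:34913809-34913828 on the minus strand, in the last exon, across the stop codon at chr17:34913818-34913820. The site was 3.2 kb from the domain edge in mESC DMSO and 2CLC DMSO and 6.8 kb in 2CLC dTAG, each time inside. It was outside in mESC dTAG, by 111.8 kb, and in the unnamed set, by 1143.6 kb. The cassette itself is no part of mm10, and all libraries came from cells that carry it, so edited and unedited alleles were not compared.

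Ehmt1, which encodes the partner of EHMT2 in the heterodimer, spans chr2:24789928-24919614 on the minus strand over 129.7 kb. Its start lay 631.7 kb from a domain in mESC DMSO and 581.7 kb in 2CLC DMSO. After depletion the distance was 121.7 kb in mESC dTAG and 311.7 kb in 2CLC dTAG, and in the unnamed set it was 351.1 kb. The near domain of mESC dTAG, chr2:24777945-24797944, was 20 kb wide and covered the last 8.0 kb of the gene (6.18%), with exons 26 and 27 and the stop codon. No other set had a domain in Ehmt1. As for Ehmt2, the contact was thus at the 3′ end, but it was found in mESC dTAG, where, as in the unnamed set, Ehmt2 had none.

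The zinc finger partners showed 3 different layouts. Wiz (chr17:32354055-32389439, minus strand) had the steadiest position, 162.5 kb from a domain in all 4 sorted sets and 162.9 kb in the unnamed set. The domain that faced it began at the same place in the 4 sorted sets and varied in width from 75 kb in mESC dTAG to 125 kb in mESC DMSO. On its other side the next domain was 5092.5 kb away in mESC DMSO, 5082.5 kb in 2CLC DMSO, 3282.5 kb in mESC dTAG and 287.5 kb in 2CLC dTAG. Thus the nearest edge stayed while the far one moved.

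Zfp644 (chr5:106616739-106697287, minus strand) was the farthest of the 10 in mESC DMSO, with 1301.1 kb to the nearest edge, and was equally far in 2CLC DMSO. In mESC dTAG the distance was 218.9 kb and in 2CLC dTAG 213.9 kb, in both cases to a domain upstream of the gene of 40 and 35 kb. In the unnamed set it was 175.2 kb. The next domain downstream was 666.1 kb away in mESC dTAG and 301.1 kb in 2CLC dTAG, and the nearest domain of the DMSO sets was 830 kb wide in mESCs and 45 kb in 2CLCs.

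Zfp462 (chr4:54945048-55083563, plus strand, 138.5 kb) had domains close on both sides in 2CLC DMSO and in the unnamed set, although its start was outside in every set. In mESC DMSO a 170 kb domain ended 20.5 kb upstream of the start and the body was free. In 2CLC DMSO the start sat in a gap of 30 kb, with a domain of 125 kb ending 5.5 kb upstream and one of 45 kb beginning 24.5 kb downstream, over exons 2 and 3 and 32.5% of the gene. In the unnamed set the gap was again 30 kb, the upstream domain was 940 kb wide and 3 domains covered 63.7% of the body. This was the only case among the 10 genes and 5 sets in which at least 50% of a body was covered.

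In the dTAG sets the domains next to Zfp462 were narrower than in the DMSO sets. In mESC dTAG the nearest was a 20 kb domain 115.5 kb upstream, and the body was free. In 2CLC dTAG a 25 kb domain over exons 2 and 3 remained in the body (18.0%), 44.5 kb from the start, with a domain of 15 kb at 115.5 kb upstream. A body touched in both 2CLC sets and in neither mESC set was found for 179 of 21755 protein-coding genes (0.823%). RefSeq promoter sequence for Zfp462 was not analysed here.

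**Figure D2:**
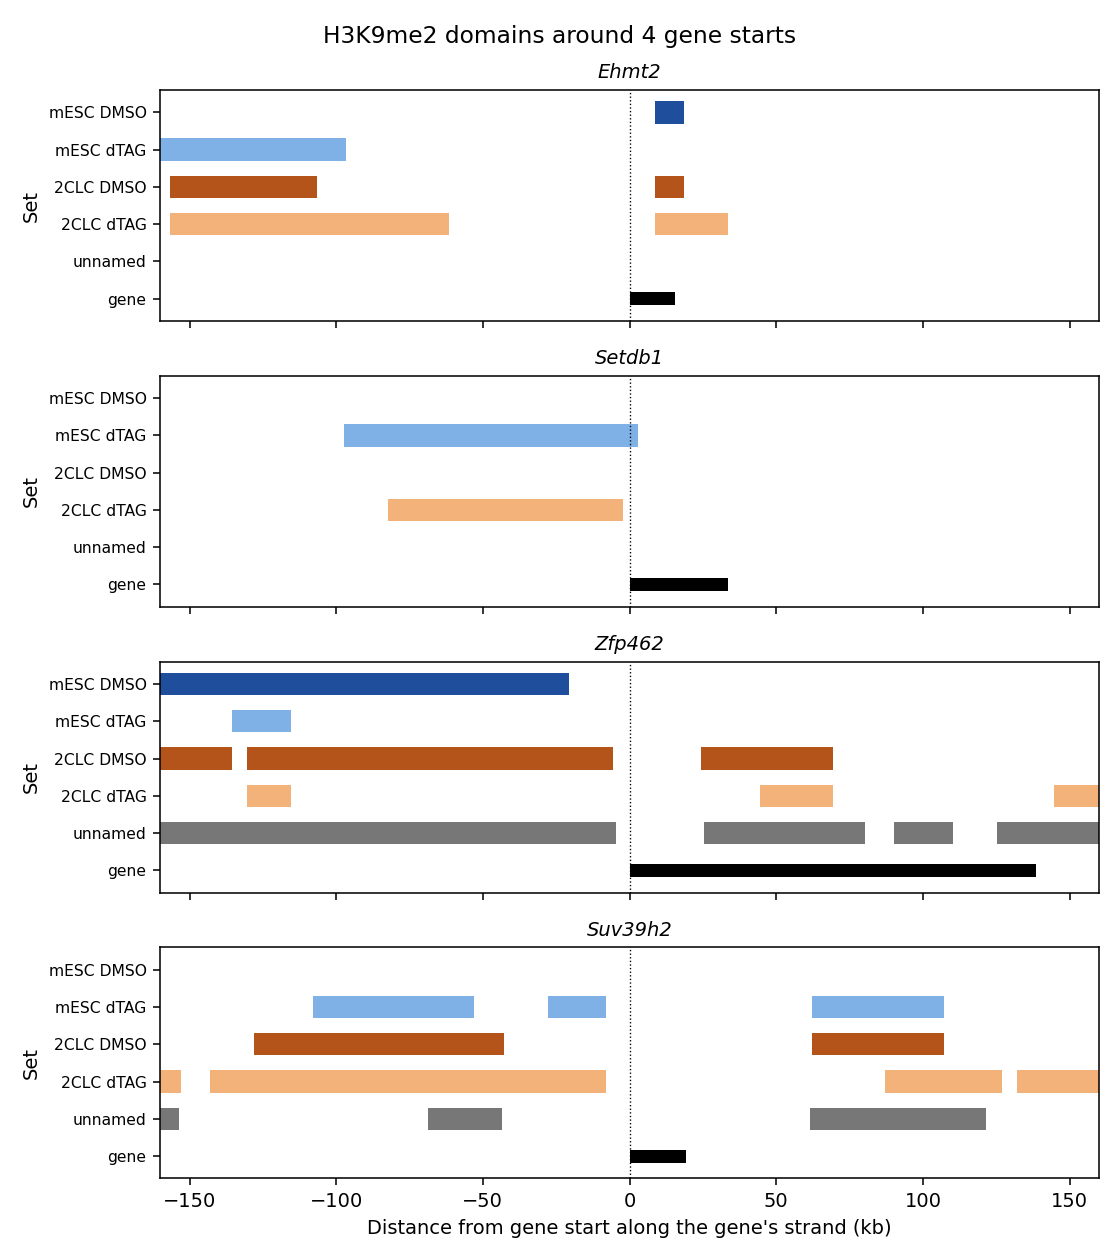
H3K9me2 domains (coloured bars, 1 row for each set) within 160 kb of the starts of Ehmt2, Setdb1, Zfp462 and Suv39h2, in kb along the strand of the gene, with the gene as a black bar and the start as a dotted line. Bars that reach the frame continue beyond it. The 10 kb domain at the 3′ end of Ehmt2, the domain over the start of Setdb1 in mESC dTAG and the gap of 30 kb around the start of Zfp462 in 2CLC DMSO can be read from the rows.

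Setdb1, a methyltransferase recruited through TRIM28, spans chr3:95323525-95357202 on the minus strand with 22 exons. It was the only gene of the 10 whose start was inside a domain. Its start lay 602.8 kb from a domain in mESC DMSO, 672.8 kb in 2CLC DMSO and, in the unnamed set, 752.1 kb. In mESC dTAG a domain of 100 kb, chr3:95354385-95454384, held the start at 2.8 kb from its edge and covered exons 1 to 3 (8.37% of the gene). In 2CLC dTAG a domain of 80 kb, chr3:95359385-95439384, ended 2.2 kb upstream of the start. The difference between inside and outside in the 2 dTAG sets was thus 1 bin of 5 kb. With every domain narrowed by 1 bin the start was outside in mESC dTAG, and with every domain widened by 1 bin it was inside in both dTAG sets.

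The domain of mESC dTAG also held the starts of 4930558C23Rik and of Arnt, a partner of hypoxia and dioxin receptor transcription factors. A start inside in mESC dTAG alone among the sorted sets was found for 366 of 21755 protein-coding genes (1.68%). Among starts that were outside in DMSO, 8.14% of all protein-coding starts entered a domain in mESC dTAG and 1 of the 10 did. In 2CLC dTAG 9.80% of all entered and 0 of the 10 did.

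The promoter of Setdb1, whose start was inside a domain, is shown beside those of Ehmt2 and Suv39h2. The Ehmt2 and Suv39h2 starts came within 10 kb of a domain without being inside. That of Zfp462 did too (5.5 kb in 2CLC DMSO, 4.7 kb in the unnamed set), but it had no RefSeq window here. Each run is the RefSeq window of GRCm38.p6 from 250 bases before to 50 after the start, 5′ to 3′ along the gene, with CpG dinucleotides in capitals.
Setdb1, chr3:95357153-95357452, minus strand: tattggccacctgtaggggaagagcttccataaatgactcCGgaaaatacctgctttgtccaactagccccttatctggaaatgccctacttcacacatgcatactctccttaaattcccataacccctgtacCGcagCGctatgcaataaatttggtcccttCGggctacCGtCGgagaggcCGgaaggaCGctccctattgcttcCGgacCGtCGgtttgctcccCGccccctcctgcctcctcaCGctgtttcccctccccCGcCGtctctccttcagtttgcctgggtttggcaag
Ehmt2, chr17:34898224-34898523, plus strand: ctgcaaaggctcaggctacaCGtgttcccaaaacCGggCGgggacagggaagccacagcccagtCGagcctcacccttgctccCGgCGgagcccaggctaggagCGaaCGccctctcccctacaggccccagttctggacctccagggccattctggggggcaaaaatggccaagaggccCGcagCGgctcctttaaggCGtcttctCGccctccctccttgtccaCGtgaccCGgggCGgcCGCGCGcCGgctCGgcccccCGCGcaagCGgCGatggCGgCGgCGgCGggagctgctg
Suv39h2, chr2:3474937-3475236, minus strand: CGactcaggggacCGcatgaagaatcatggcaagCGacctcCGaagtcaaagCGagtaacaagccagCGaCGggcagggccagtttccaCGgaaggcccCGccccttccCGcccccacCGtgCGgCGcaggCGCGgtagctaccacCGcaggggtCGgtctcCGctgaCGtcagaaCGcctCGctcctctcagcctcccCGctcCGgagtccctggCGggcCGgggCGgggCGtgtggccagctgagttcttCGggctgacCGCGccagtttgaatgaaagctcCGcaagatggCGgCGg
The Setdb1 window held 15 CpGs at 55.3% GC, the Ehmt2 window shown 28 at 70.3% and that of Suv39h2 33 at 68.3%. Another Ehmt2 window, not shown, held 40 at 82.7%. A window was called CpG-rich at 50% GC or more with an observed to expected CpG ratio of at least 0.6. The 3 windows shown were CpG-rich, as was the other Ehmt2 window. Across the family RefSeq gave 16 windows for 9 of the 10 genes, of which 12 were CpG-rich, against 46.9% of 20061 windows of protein-coding genes. Each of the 9 genes had at least 1 such window. The 46.9% is a share of windows, and the share of all protein-coding genes with at least 1 such window is not given here. The median was 28.5 CpGs against 14, from 3 in a window of Wiz to 47 in a window of Zfp644. CpG was counted as the letters CG, which read the same on both strands.

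Suv39h2 (chr2:3455815-3475031, minus strand), which encodes a methyltransferase of constitutive heterochromatin, stayed outside but between domains on both sides. Its start was 197.1 kb from an edge in mESC DMSO and 42.9 kb in 2CLC DMSO. In both dTAG sets it was 7.9 kb, with the facing domain at the same edge and a width of 20 kb in mESC dTAG and 135 kb in 2CLC dTAG. In the unnamed set it was 43.5 kb. In mESC dTAG the whole gene sat in a gap of 70 kb between domains.

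Trim28 (chr7:12999114-13031035, plus strand), the corepressor for KRAB zinc finger proteins, had the highest domain coverage in the surrounding 1 Mb among the 10 genes in all 4 sorted sets, while in the unnamed set Zfp462 was higher (74.0% against 67.5%). The distance from its start was 65.5 kb in mESC DMSO and 60.5 kb in 2CLC DMSO, 40.5 kb in mESC dTAG and 50.5 kb in 2CLC dTAG, and 76.5 kb in the unnamed set. On the upstream side the facing domain was 285 kb wide in mESC DMSO and 75 kb in 2CLC DMSO, and after depletion 125 kb in mESCs and 5740 kb in 2CLCs. In mESCs these widths turn on 1 bin. Behind the facing domain, across a gap of 5 kb, lay one of 5590 kb in mESC dTAG and one of 5275 kb in mESC DMSO. In 2CLC DMSO the next domain was 305 kb wide across a gap of 20 kb, and in 2CLC dTAG 235 kb across 10 kb. Downstream, domains of 200 to 250 kb faced it in all 5 sets. The gene nevertheless lay in a stretch of 115 kb that was free of domains in all 4 sorted sets, together with the starts of 7 other protein-coding genes. The RefSeq start lies 25 kb from the GENCODE start used here, and from it the distances were 40.5, 35.5, 15.5, 25.5 and 51.5 kb in the order given above, outside in every set.

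The HP1 genes were at least 141.9 kb from a domain in every set. Cbx3 (chr6:51470360-51483704, plus strand) was 861.0 kb from an edge in mESC DMSO and 1494.0 kb in 2CLC DMSO, 594.0 kb in mESC dTAG and 224.0 kb in 2CLC dTAG, and 141.9 kb in the unnamed set. Its distance thus took a different value in each set. Cbx5 (chr15:103191544-103239816, minus strand) was 313.8 kb from an edge in mESC DMSO, mESC dTAG and 2CLC dTAG, with 318.8 kb in 2CLC DMSO and, in the unnamed set, 319.1 kb. Like Wiz, it faced a domain whose near edge moved by no more than about 1 bin.

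Among starts outside domains in both DMSO and dTAG, most were nearer to a domain in dTAG, for these genes as for all protein-coding genes. In mESCs, of the 9 starts outside in both sets, 5 were nearer to a domain in dTAG (Ehmt1, Zfp644, Trim28, Suv39h2 and Cbx3), against 68.3% of protein-coding starts, and 2 were farther (Ehmt2 and Zfp462), against 22.8%. In 2CLCs 7 of 10 were nearer, against 76.7%, and 1 was farther (Zfp462), against 15.7%. The 7 were Ehmt1, Zfp644, Trim28, Setdb1, Suv39h2, Cbx3 and Cbx5, the last by only 1 bin (318.8 and 313.8 kb). Wiz was equal in both cell states, Cbx5 in mESCs and Ehmt2 in 2CLCs. The dTAG sets held more and narrower domains than the DMSO sets in both cell states, which moves with these counts, and its part in them was not tested. Zfp462 was the only one of the 10 genes that was farther from a domain in dTAG in both cell states. The share of all protein-coding genes that were farther in both is not given here.

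Between cell states in DMSO, the distances of Ehmt2, Wiz and Zfp644 to the nearest edge were equal. Other domains around them were not. The domain upstream of Ehmt2 was 1461.5 kb away in mESC DMSO and 106.5 kb in 2CLC DMSO. Suv39h2 differed by the most in the direction of 2CLCs being nearer, with 197.1 kb in mESCs and 42.9 kb in 2CLCs, and Cbx3 in the other direction, with 861.0 and 1494.0 kb. In dTAG the largest differences were those of Cbx3, at 594.0 kb in mESCs and 224.0 kb in 2CLCs, and of Ehmt1, at 121.7 and 311.7 kb. These comparisons use the same 4 lists as those between DMSO and dTAG.

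Coverage of the wider neighbourhood by domains, which is not a level of the mark, differed between genes and between sets. Within 500 kb on either side of the start, domains covered 0% of the sequence around Ehmt1, Zfp644, Setdb1 and Cbx3 in both DMSO sets. In the unnamed set domains covered 32.0% around Zfp644, 25.2% around Cbx3, 13.9% around Ehmt1 and 0% around Setdb1. Around Trim28 they covered 62.5% in mESC DMSO and 73.5% in 2CLC DMSO, and after depletion 86.0% in mESCs and 83.0% in 2CLCs. Suv39h2 was next in both dTAG sets, at 29.2% in mESCs and 66.0% in 2CLCs. Around Zfp462 coverage in mESCs was 47.4% with DMSO and 18.9% with dTAG, and in 2CLCs 56.9% and 28.4%. It was the only gene of the 10 with lower coverage in dTAG in both cell states, Cbx5 being lower in mESCs alone (18.6% and 13.1%). The share of all protein-coding genes with lower coverage in dTAG is not given here. Their median was lower with dTAG in mESCs (17.5% in DMSO and 16.5% in dTAG) and higher in 2CLCs (14.4% and 20.5%).

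The median over the 10 genes was 6.75% in mESC DMSO and 9.00% in 2CLC DMSO, where that of all protein-coding genes was 17.5% and 14.4%. After depletion it was 12.1% in mESCs and 17.3% in 2CLCs, against 16.5% and 20.5%. In the unnamed set it was 21.1% against 35.4%. The number of other protein-coding starts in the same 1 Mb was 65 around Ehmt2, the most of the 10, and 1 around Zfp462, the fewest, with a median of 20.0 against 16.0 for all. GC content of the surrounding 100 kb had a median of 43.8% against 44.3%, and soft-masked repeats 32.2% against 30.4%. Setdb1 had the highest repeat share, at 46.5%, and Ehmt2 the highest GC, at 50.2%.

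**Figure D3:**
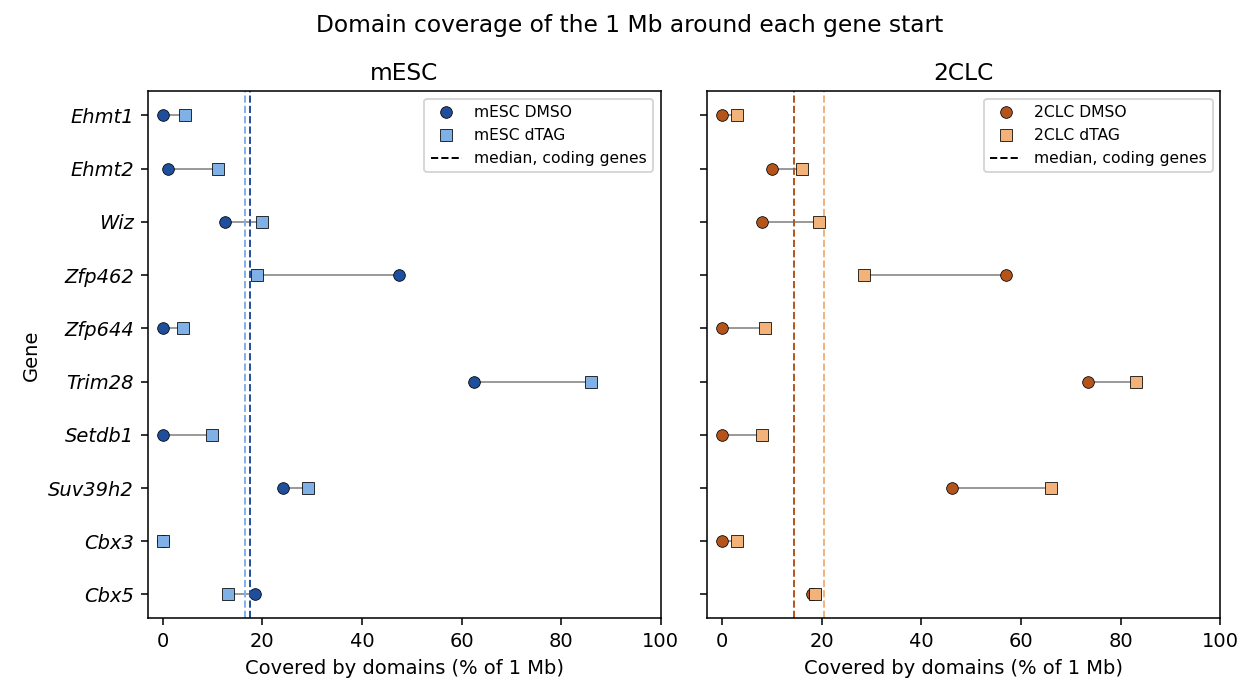
Percent of the 1 Mb around each gene start that was covered by domains, in mESCs (left) and 2CLCs (right), with circles for DMSO, squares for dTAG and dashed lines at the median of protein-coding genes in the colour of each set. Zfp462 moves to the left in both panels, from 47.4% to 18.9% and from 56.9% to 28.4%, and Trim28 lies farthest to the right.

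The genes with the most similar position were those that lay between the same domains in all 4 sorted sets. Cbx3 shared a domain-free stretch of 1080 kb with 18 other protein-coding genes, the nearest being Hnrnpa2b1, whose start is 0.5 kb away. Cbx5 shared 925 kb with 23, the nearest being Hnrnpa1 at 0.6 kb. Ehmt1 shared 905 kb with 56, with Arrdc1 the nearest at 15.6 kb. Among the zinc finger genes, Zfp644 shared 515 kb with 2 (Gm17304 at 88.2 kb) and Wiz 450 kb with 10 (Rasal3 at 14.1 kb and Akap8l at 38.8 kb). For Trim28 the nearest to the GENCODE start were Slc27a5 at 0.9 kb and, on the other side, Zbtb45 at 10.9 kb. From its RefSeq start, 25 kb away, these distances differ. Ehmt2 shared 70 kb with 7, the nearest being the complement gene C2 at 0.2 kb, and Suv39h2 70 kb with 2, the nearest being Dclre1c at 50.9 kb. Zfp462 shared its 30 kb with no other gene, and for Setdb1 no such stretch exists because its start was inside a domain in mESC dTAG.

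A further 32 genes of H3K9 methylation, listed by role, were placed in the same way. Their starts were inside domains for 4 of 32 in mESC DMSO and 5 in 2CLC DMSO, 8 in mESC dTAG and 6 in 2CLC dTAG, and 6 in the unnamed set, to be read against the shares of all starts given above. The other methyltransferase genes (Suv39h1, Setdb2, Prdm2, Mecom and Prdm16) had 0 of 5 starts inside in any set. The body of 1 of the 5, Mecom, was touched in every set, with 5.56% covered in mESC dTAG and 81.1% in the unnamed set. Of 10 demethylase genes, which remove the mark, Kdm4c was inside in mESC DMSO, mESC dTAG and 2CLC DMSO and Kdm4a in both dTAG sets. Phf8 was inside in mESC dTAG, 2CLC DMSO and the unnamed set. Of 14 genes for readers and cofactors, Atf7ip, which encodes a partner of SETDB1, was inside in all 5 sets.

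The chromatin remodeller gene Atrx and the chromodomain gene Cdyl2 were inside in both dTAG sets and in neither DMSO set. Both were also inside in the unnamed set. In 2CLC DMSO the Atrx start lay only 1.8 kb outside a domain. Atrx and Phf8 are on chromosome X, which was left out of the scaling of coverage. Cdyl was inside in 2CLC DMSO and the unnamed set, and Morc2a in mESC DMSO. Of 3 KRAB zinc finger genes, Zfp932 was inside in all 4 sorted sets and Zfp809 in both dTAG sets. In all, 10 of the 32 starts were inside a domain in at least 1 sorted set, as were 34.2% of all protein-coding starts.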

How the data were processed

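According to the study's methods and the submitters' processing notes, the authors aligned reads to mm10 with STAR 2.7.10 in a mode that keeps multi-mapping reads, removed duplicates with Picard 2.26.0 and High Signal Regions, and scaled coverage to genome content with deepTools 3.5.1, leaving chromosomes X and M out of the scaling. Coverage was averaged over 10 kb at steps of 5 kb and divided by input on a log2 scale. Domains were seeded at bins above an upper percentile limit of this ratio and extended until a bin below a lower percentile limit was met. Bins between these limits can thus lie inside a domain. Whether replicates were pooled or limits set for each list was not stated. The deposited lists hold positions only (score 0), so no test was run and no library depth is known.

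Positions were counted from 1. Genes were those of GENCODE M21 on GRCm38, and promoter windows came from RefSeq (GRCm38.p6). Overlaps were computed in Python 3.11.15 with numpy 2.4.6 and tested on simulated intervals. All 10 genes were named in every set. Of the other 32, those inside a domain of at least 1 sorted set were named. The genes and lists were chosen with earlier results of these data known. Alternatives were domains of at least 50 kb, edges moved by 1 bin, gaps of up to 10 kb joined, any transcript start, and chromosome X left out.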

Additional observations from a re-analysis of the deposited data

How the results depend on the processing

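Over 135 combinations of a result and an alternative, 82 stayed within the limits set for them and 53 moved. The limits were 1.5 times for a count, 1 bin for a median and the 95% Wilson interval for a share of protein-coding genes, which is narrow at this number of genes. Of the values that moved, 22 were counts, 4 were medians and 27 were such shares, which moved by at most 7.60 percentage points. No paired analysis was possible because the lists carry no values for single replicates.

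With domains narrowed by 1 bin on each side, the Setdb1 start left its domain, so 0 of 10 starts were inside in mESC dTAG and 0 changed between DMSO and dTAG in mESCs. The count of bodies touched was then 0 in mESC DMSO, 1 in 2CLC DMSO and 1 in mESC dTAG, as the contacts of Ehmt2 (both DMSO sets) and Setdb1 were lost, and the count covered by at least 50% in the unnamed set was 0. With domains widened by 1 bin, the start of Setdb1 was inside in 2CLC dTAG and that of Zfp462 in the unnamed set (1 of 10 inside in each), 1 start changed on treatment in 2CLCs, and 1 body was at least 50% covered in mESC DMSO, 2CLC DMSO and 2CLC dTAG. When domains under 50 kb were left out, the contacts of Ehmt2, Ehmt1 and (in the 2CLC sets) Zfp462 were lost, leaving 0 bodies touched in mESC DMSO, 0 in 2CLC DMSO, 1 in mESC dTAG and 0 in 2CLC dTAG, and 0 at least 50% covered in the unnamed set. The median nearest distance was then 479.8 kb in mESC DMSO, 231.5 kb in each of mESC dTAG and 2CLC dTAG, and 221.6 kb in the unnamed set, and stayed at 240.7 kb in 2CLC DMSO.

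With any annotated transcript start, 4 of the 14 starts of Ehmt2 were inside in mESC DMSO, 2CLC DMSO and 2CLC dTAG, and 2 of the 4 of Zfp462 in 2CLC DMSO, 2CLC dTAG and the unnamed set. The count of the 10 genes inside was then 1 in mESC DMSO, 2 in 2CLC DMSO, 2 in 2CLC dTAG and 1 in the unnamed set, and 2 changed on treatment in mESCs.

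The share of protein-coding starts inside, in mESC DMSO, was 21.8% with domains of at least 50 kb, 23.1% with gaps joined, 24.2% with any transcript start and 21.4% without chromosome X. In mESC dTAG it was 21.0%, and with any start 25.9% and without X 22.8%. In 2CLC DMSO the 4 values were 22.5%, 23.9%, 25.0% and 22.1%, and in 2CLC dTAG 23.0%, 27.2%, 29.4% and 25.5%. In the unnamed set the first 3 were 29.0%, 31.1% and 32.9%. Bodies touched at a minimum of 50 kb were 26.2% in mESC DMSO, 26.5% in 2CLC DMSO, 25.2% in mESC dTAG, 27.7% in 2CLC dTAG and 35.2% in the unnamed set. Without chromosome X they were 26.8%, 27.1%, 30.0% and 34.2% in the 4 sorted sets, in this order.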
